A study of Rattus norvegicus with 8 samples.

Results

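Platelets are small anucleate cells that bud from megakaryocytes and carry over part of their RNA, so whole blood RNA holds platelet transcripts beside those of red cell precursors and white cells. The 7 genes described here make adhesion receptors of the platelet surface (Itga2b, Itgb3 and Gp9) and proteins that are stored in platelet granules (Pf4, Ppbp, Selp and Clu). They were found as every probe set whose platform annotation gave exactly 1 gene symbol equal to one of these names, which gave 9 of the 31042 probe sets for transcripts on the array. Pf4, Ppbp, Itga2b, Itgb3 and Gp9 had 1 probe set each, and Selp and Clu had 2 each, called brighter and dimmer by their mean level.

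The study fed male Wistar rats, bought at 7 weeks of age and kept for 1 week on CE-2 chow, with different diets for 8 weeks. The high-fat group (4 arrays) received the Quick fat diet (CLEA Japan) and the normal group (4 arrays) a normal diet. Of 10 rats fed per group, 4 per group have an array here. The sources used here do not say how these 4 were picked. Rats that also ate mulberry leaf powder are not analysed here. Blood was drawn after an overnight fast, and its RNA was hybridised to Affymetrix 3' arrays, where a probe set is a group of short probes that together read 1 transcript. Each array stands for 1 animal, as the labels call them biological replicates.

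The deposited levels read as log2 intensities, from 5.19 to 15.25, but they differ very little between arrays. Across the 8 arrays, probe sets had a median SD of only 6.07e-06 on that scale. Such differences are not log2 ratios of RNA amount, and their compression can differ between probe sets. Values of single arrays are therefore given as deviations from the mean of that probe set over the 8 arrays, in units of 0.0001 on the deposited scale, called units below. No fold change is given. Array normal 3 stood apart on bright probe sets: of the 2426 probe sets with a mean level over 8, 55.1% had their lowest value there. In whole blood, fewer platelets and less RNA per platelet cannot be told apart.

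When a platelet is activated, the αIIbβ3 integrin made by Itga2b and Itgb3 binds fibrinogen and links platelets to each other, while the GPIb-IX-V complex, of which Gp9 is a part, holds them to von Willebrand factor on the vessel wall. Alpha granules then release chemokines and bring P-selectin to the surface. Most of the 7 genes were bright in this blood. Mean levels were 12.82 for Pf4, 10.63 for Itga2b, 9.83 for Itgb3, 9.04 for the brighter Clu probe set, 8.47 for Ppbp and 8.07 for Gp9. All 6 lay above the 92nd percentile of probe set means on the array, from 92.8 for Gp9 to 99.7 for Pf4. The 3 others were 6.89 for the brighter Selp probe set (percentile 65.3), 6.34 for the dimmer Clu probe set (33.4) and 6.01 for the dimmer Selp probe set, the lowest of the 9. Probes of different sequence bind differently, so no order of RNA amounts between the genes is read from these levels. The markers Pf4, Itga2b, Itgb3, Ppbp and Gp9 were thus all bright, while both Selp probe sets and the dimmer Clu probe set were not.

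No diet difference was found for any of them. With limma, 0 of the 31042 probe sets passed an adjusted p of 0.05 (0%), and so 0 of the 9 did. All 9 had an adjusted p of 1. At an unadjusted p under 0.05 there was 1 of 9, the dimmer Selp probe set, where 699 of all probe sets, 2.25%, lay under that value. The mean of the high-fat arrays was below that of the normal arrays in 6 of the 9, where 53.4% of all probe sets had this direction. Centring each array on its median put all 9 below. That step moves every probe set of an array by the same amount, and the share over all probe sets was not taken after it. The 9 are therefore not read as a result about these genes. The 4 high-fat arrays lay entirely below or above the 4 normal ones in 1 of the 9, again the dimmer Selp probe set, against 1.44% of all probe sets (0.857% below and 0.586% above).

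**Figure D1:**
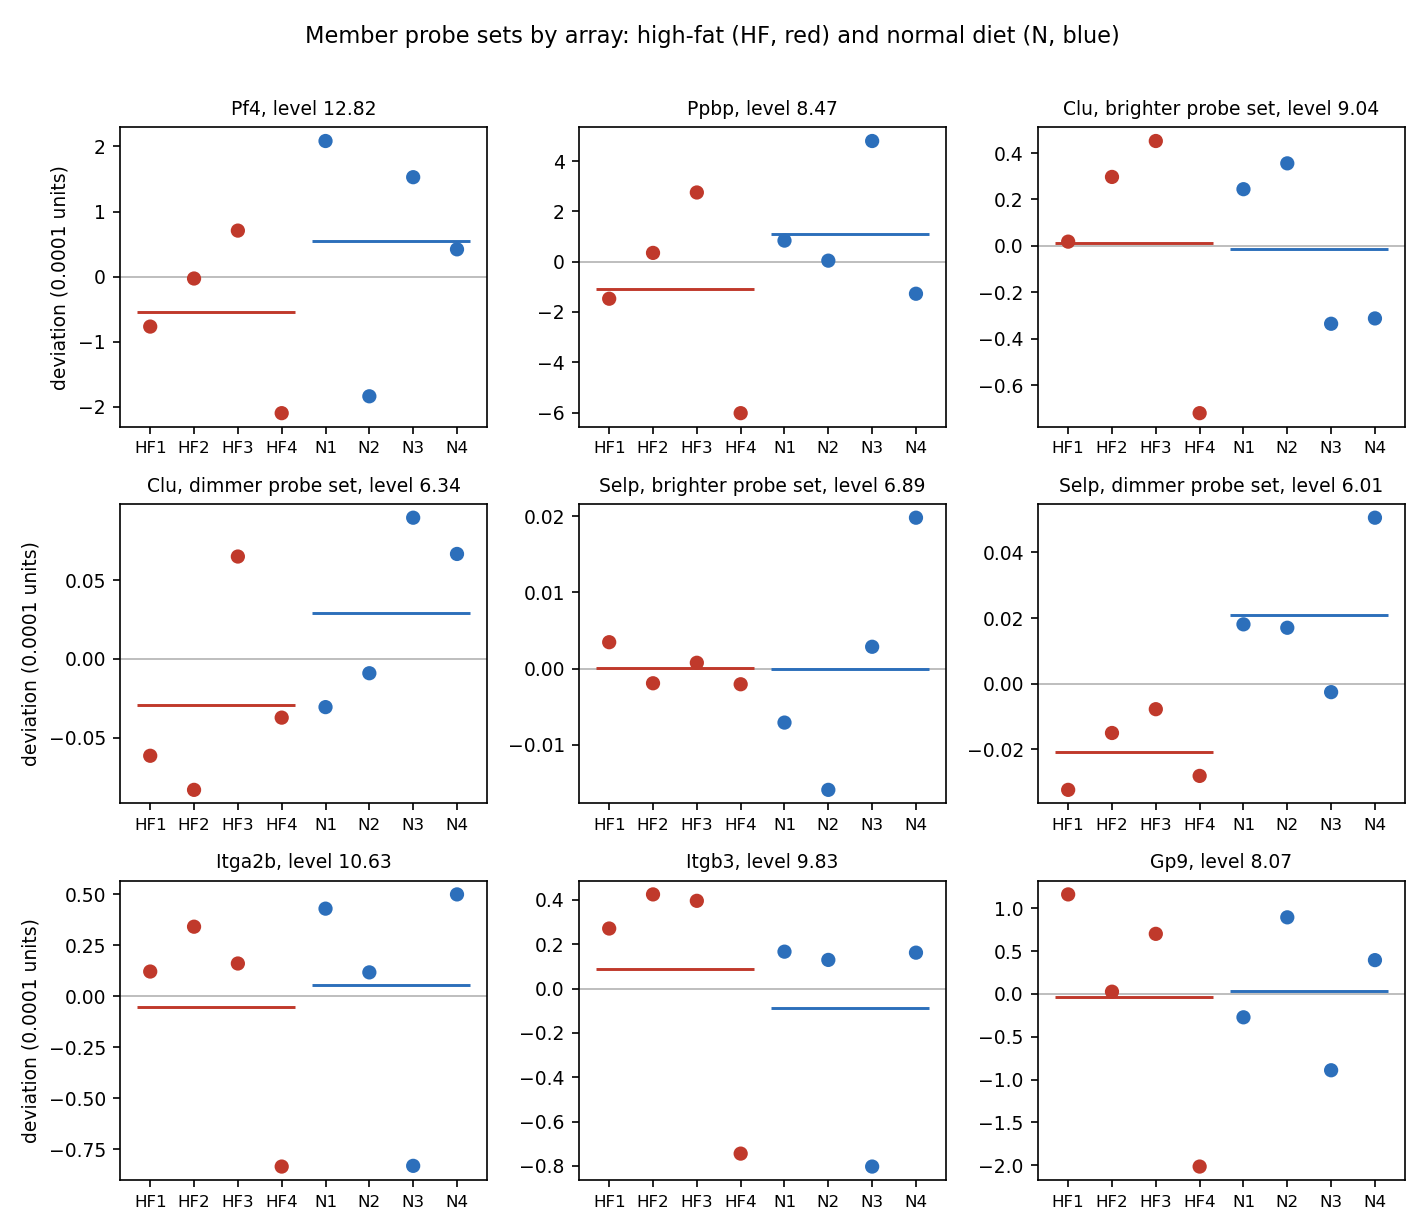
Deviation of each member probe set from its mean over the 8 arrays, in units of 0.0001 on the deposited scale, for high-fat arrays 1 to 4 (HF, red) and normal arrays 1 to 4 (N, blue), with lines at the group means. The vertical scales differ between panels. Array HF4 is the lowest for Pf4, Ppbp, the brighter Clu probe set, Itga2b and Gp9, and the groups are separate only for the dimmer Selp probe set.

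The granule chemokines varied most. Pf4, platelet factor 4, is a heparin-binding chemokine of the alpha granule, and Ppbp, pro-platelet basic protein, is the precursor of a chemokine that attracts neutrophils. Both lie on chromosome 14 as adjacent protein-coding genes in the GRCr8 annotation. Pf4 deviated by -0.769, -0.0296, 0.707 and -2.10 units in high-fat arrays 1 to 4, against 2.08, -1.84, 1.53 and 0.419 units in normal arrays 1 to 4. The groups overlapped, with array high-fat 4 lowest and array normal 2 next to it. The means were -0.548 ± 1.20 units in the high-fat group and 0.548 ± 1.74 units in the normal group (SD, n = 4 each). The difference of high-fat minus normal was -1.10 ± 0.992 units (SE; limma p = 0.307; exact permutation p = 0.343), or -0.735 of the pooled SD within groups, called within-group SDs below.

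Ppbp deviated by -1.47, 0.348, 2.75 and -6.03 units in the high-fat arrays, against 0.837, 0.0400, 4.80 and -1.28 units in the normal arrays. Array high-fat 4 was again lowest, and array normal 3 was highest. The means were -1.10 ± 3.71 units in the high-fat group and 1.10 ± 2.62 units in the normal group (SD, n = 4 each), and the difference was -2.20 ± 2.14 units (SE; limma p = 0.338; exact permutation p = 0.4), or -0.685 within-group SDs. Without array high-fat 4 it was -0.558 units. The range of Ppbp over the arrays was 10.8 units and that of Pf4 4.18 units, while the other 7 probe sets ranged from 0.0357 units for the brighter Selp probe set to 3.18 units for Gp9.

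These ranges were also wide for probe sets of like brightness. Among the 72 probe sets whose mean level lay within 0.5 of that of Pf4, 98.6% had a smaller SD. The same share was 94.3% for Ppbp (among 1646 probe sets) and 87.9% for Gp9 (among 2967). It was 50.5% for Itgb3, 49.0% for the brighter Clu probe set and 46.4% for Itga2b, so these 3 bright probe sets had an ordinary spread. At the other end, 6.54% of probe sets near the brighter Selp probe set had a smaller SD than it. Since the compression of the deposited values can differ between probe sets, these shares describe the deposited table and not the animals.

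Selp encodes P-selectin, which is stored in alpha granules and in endothelial cells and binds a ligand on white cells once it reaches the surface. The dimmer Selp probe set deviated by -0.0323, -0.0150, -0.00775 and -0.0281 units in the high-fat arrays, against 0.0181, 0.0170, -0.00256 and 0.0506 units in the normal arrays. All 4 high-fat arrays lay below all 4 normal ones, which 0.857% of all probe sets showed in this direction. The gap between array high-fat 3 and array normal 3 was narrow beside the spread of either group. The difference was -0.0416 ± 0.0140 units, or -2.37 within-group SDs. Its limma p was 0.0213 before adjustment and 1 after it. An exact permutation test gave 0.0286, the smallest p that 4 against 4 arrays allow. The unadjusted limma p was above 0.05 when array high-fat 1 or high-fat 4 was left out (0.0558 and 0.0535, with differences of -0.0377 and -0.0391 units), and when each array was centred on its median (0.108, at -0.701 units).

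The brighter Selp probe set did not show this separation. It deviated by 0.00348, -0.00192, 7.75e-04 and -0.00205 units in the high-fat arrays, against -0.00708, -0.0159, 0.00288 and 0.0198 units in the normal arrays. Here the high-fat arrays lay within the range of the normal ones, and the difference was 1.45e-04 ± 0.0106 units (limma p = 0.989; exact permutation p = 0.971). Over the 8 arrays the Selp probe sets had a Pearson r of 0.288 with each other (exact permutation p = 0.491, and 0.684 adjusted over the Selp and Clu pairs; Spearman rho = -0.0714, exact p = 0.882). Without the 2 arrays farthest from the median of the brighter one, r was -0.589.

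Clu encodes clusterin, a secreted chaperone found in alpha granules and also made by many tissues. Its brighter probe set deviated by 0.0185, 0.297, 0.452 and -0.720 units in the high-fat arrays, against 0.244, 0.356, -0.335 and -0.312 units in the normal arrays. Its high-fat arrays held both the highest and the lowest value. The difference was 0.0237 ± 0.298 units (limma p = 0.939; exact permutation p = 0.971). The dimmer probe set, below the median level of the array, deviated by -0.0613, -0.0829, 0.0649 and -0.0372 units in the high-fat arrays, against -0.0305, -0.00903, 0.0895 and 0.0666 units in the normal arrays. Of the high-fat arrays, 3 lay below all normal ones and array high-fat 3 lay among them. The difference was -0.0583 ± 0.0418 units, or -0.943 within-group SDs (limma p = 0.207; exact permutation p = 0.171). The Clu probe sets had r = -0.164 with each other (exact permutation p = 0.684, also after adjustment; rho = -0.119, exact p = 0.793), and r = -0.212 without the 2 arrays farthest from the median. For comparison, 3061 genes of the table had exactly 2 probe sets with 1 symbol, and their median r was 0.176, with 37.3% below 0.

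Itga2b encodes the αIIb chain of the fibrinogen receptor, which is made almost only by megakaryocytes, and Itgb3 its partner chain β3, which other cells also make. Gp9 encodes glycoprotein IX, without which the GPIb-IX-V complex does not reach the surface. Promoter sequences from RefSeq's GRCr8 annotation, 250 bases before to 50 bases after the start of the gene, were at hand for Itga2b, Gp9 and Ppbp. They are shown as background, and a link between these sequences and the values by array was not tested. Both strands were searched for motifs of 2 factor families that act in megakaryocytes, the GATA family, with the letters AGATAA or AGATAG or TGATAA or TGATAG, and the ETS family, with the letters CCGGAA, and matches are in capitals.
Itga2b, chr10:87925784-87926083, minus strand: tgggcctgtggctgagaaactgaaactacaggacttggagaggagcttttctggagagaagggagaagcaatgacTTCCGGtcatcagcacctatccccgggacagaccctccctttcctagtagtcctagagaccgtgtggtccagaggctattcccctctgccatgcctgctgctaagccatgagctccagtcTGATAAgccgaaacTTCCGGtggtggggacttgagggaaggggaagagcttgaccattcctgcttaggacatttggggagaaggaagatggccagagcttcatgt
Gp9, chr4:121792592-121792891, plus strand: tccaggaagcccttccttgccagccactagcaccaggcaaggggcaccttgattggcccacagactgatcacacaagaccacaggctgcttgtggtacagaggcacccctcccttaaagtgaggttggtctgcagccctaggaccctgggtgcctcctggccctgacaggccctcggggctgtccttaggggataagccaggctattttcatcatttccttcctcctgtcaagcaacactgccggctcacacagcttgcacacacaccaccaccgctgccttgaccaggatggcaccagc
Ppbp, chr14:17587250-17587549, minus strand: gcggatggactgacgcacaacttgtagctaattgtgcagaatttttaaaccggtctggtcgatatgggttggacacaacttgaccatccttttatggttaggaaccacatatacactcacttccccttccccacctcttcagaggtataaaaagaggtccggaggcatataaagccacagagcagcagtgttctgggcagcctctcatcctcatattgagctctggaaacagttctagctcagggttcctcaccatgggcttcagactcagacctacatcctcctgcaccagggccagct
The Itga2b window held TGATAA, beginning at -55 from the start, and CCGGAA on the opposite strand at -175 and -41, where it reads TTCCGG. None of these matches overlapped. The Gp9 and Ppbp windows held no match. Of 33469 windows of this length, 30.3% held a GATA match, 14.95% an ETS match and 3.77% an ETS match at 2 or more places. A match of letters is a description and not a binding site.

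Itga2b deviated by 0.121, 0.341, 0.160 and -0.835 units in the high-fat arrays, against 0.429, 0.117, -0.832 and 0.499 units in the normal arrays. Itgb3 deviated by 0.271, 0.424, 0.396 and -0.745 units in the high-fat arrays, against 0.166, 0.129, -0.803 and 0.162 units in the normal arrays. For both integrin chains the arrays fell into a low pair, high-fat 4 and normal 3, and 6 others that lay together above it. For Itgb3, the 3 other high-fat arrays lay above all normal ones. The difference of Itga2b was -0.107 ± 0.381 units (limma p = 0.788; exact permutation p = 0.629) and that of Itgb3 0.173 ± 0.346 units (limma p = 0.633; exact permutation p = 0.457). Gp9 deviated by 1.16, 0.0262, 0.701 and -2.01 units in the high-fat arrays, against -0.273, 0.894, -0.891 and 0.395 units in the normal arrays. Arrays high-fat 4 and normal 3 were lowest again, followed by array normal 1. The difference of Gp9 was -0.0627 ± 0.754 units (limma p = 0.936; exact permutation p = 0.943).

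The sign of these small differences turned when single arrays were left out. Without array high-fat 4, Itga2b stood at 0.154 and Gp9 at 0.598 units, now above normal, and Itgb3 at 0.450 units. Without array normal 3, Itgb3 stood at -0.0658 and the brighter Clu probe set at -0.0841 units. None of the 9 probe sets passed limma in any of these fits.

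Whether the genes moved together was asked of 21 pairs, each gene by its brighter probe set. Over 8 arrays, 6 pairs had an exact permutation p under 0.05 for Pearson's r before adjustment (Itga2b and Itgb3 among them), and 0 after Benjamini-Hochberg adjustment over the 21 pairs, where the smallest value was 0.144. Centring each array on its median gave 5 pairs after adjustment. That step shifts all genes of an array by the same amount, with array medians from 6.60029 to 6.60051, so it can add a common movement to every pair. By Spearman's rho, 1 pair had an exact p under 0.05 before adjustment and 0 after. That pair was Pf4 and Ppbp. The chemokines had r = 0.721 (exact permutation p = 0.0387, adjusted 0.144) and rho = 0.810 (exact p = 0.0218, adjusted 0.457). On deviations from the diet means r was 0.674, and without arrays high-fat 4 and normal 2, the farthest from the median of Pf4, it was 0.614 (exact p = 0.185). Without array high-fat 4 alone r was 0.543, and without arrays high-fat 4 and normal 3 it was 0.396 (exact permutation p = 0.443). Of all other probe sets, 4.05% had an r with Pf4 at least as high as Ppbp had.

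For Itga2b and Itgb3 no correlation over all 8 arrays is given, since the arrays formed separate clusters. Within the 6 arrays of the upper cluster r was -0.207 (exact permutation p = 0.643), so beyond the low pair of arrays no common movement of the chains was found. Itgb3 and Gp9 had r = 0.820 (exact permutation p = 0.0216, adjusted 0.144; rho = 0.476, exact p = 0.243), which rests on the same 2 arrays, since r was -0.0367 without them. Itga2b and Gp9 had r = 0.731 (exact permutation p = 0.0413, adjusted 0.144; rho = 0.262, exact p = 0.536), and r = -0.797 without arrays high-fat 4 and normal 3. The brighter Clu probe set had r = 0.808 with Itgb3 (exact permutation p = 0.0157, adjusted 0.144; rho = 0.667, exact p = 0.0831) and r = 0.728 with Gp9 (exact permutation p = 0.0354, adjusted 0.144; rho = 0.619, exact p = 0.115). Without these 2 arrays, r was 0.414 and -0.0486. The brighter Selp probe set had no r above 0.276 with any of the 6 other genes.

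Chemokines and adhesion genes parted in array normal 3. The mean scaled level, after each gene was centred on 0 and divided by its own SD across arrays, was -1.35 there for Itga2b, Itgb3 and Gp9, and 1.26 for Pf4 and Ppbp. In array high-fat 4 it was -1.67 and -1.64, low for both groups of genes. In the 6 other arrays the adhesion genes lay between 0.295 and 0.628 and the chemokines between -0.607 and 0.826. The correlation between the groups of genes turned with the array left out. Ppbp and Itgb3 had r = 0.129 over all arrays (exact permutation p = 0.733, adjusted 0.972; rho = 0.0714, exact p = 0.882), r = 0.890 without array normal 3 and r = -0.664 without array high-fat 4.

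**Figure D2:**
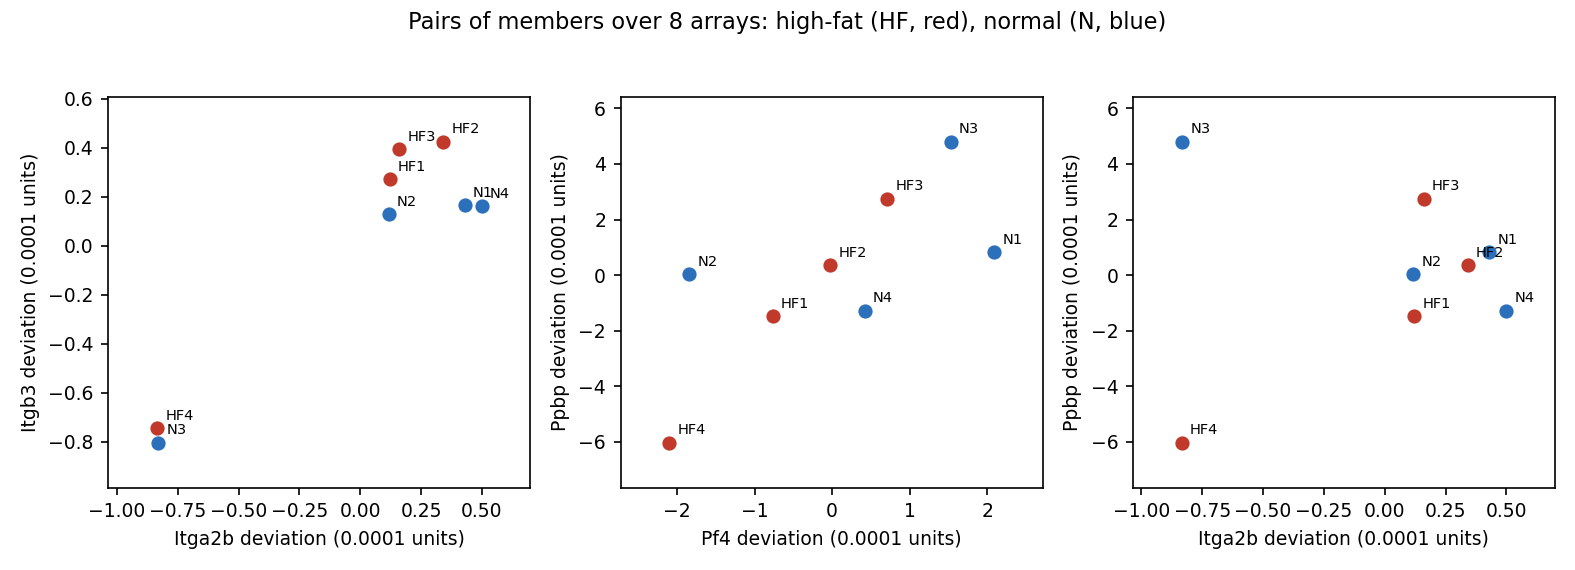
Deviations of member pairs in units of 0.0001 on the deposited scale, 1 point per array (HF, high-fat, red; N, normal, blue), for Itga2b and Itgb3, Pf4 and Ppbp, and Itga2b and Ppbp. HF4 and N3 lie together at the low end of both integrin chains, and at opposite ends of Ppbp, at -6.03 and 4.80 units.

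Array high-fat 4 was the lowest of the 8 for 5 of the 6 member probe sets with a level over 8. Among all 2426 probe sets with such a level, 10.8% had their lowest value there. Genes of monocytes and natural killer cells moved with this array in the opposite direction. Median scaled levels there were 0.716 for the neutrophil list and 0.00349 for the endothelial list. They were below 0 for the red cell (-0.634), T cell (-0.428) and B cell (-0.688) lists, and -0.141 over all probe sets. All 9 measured genes of the monocyte list (of 10 listed, with 0 below the 25th percentile of levels) had their highest value in array high-fat 4, as did 8 of 9 of the natural killer list (0 below that percentile), against 12.6% of all probe sets. The mean scaled level of the monocyte list ranged from -0.516 to 2.12 in the high-fat arrays and from -0.498 to -0.110 in the normal arrays. That of the natural killer list ranged from -0.418 to 2.07 in the high-fat arrays and from -0.663 to 0.103 in the normal arrays. In both, the top value was array high-fat 4. In array normal 3, 8 of 11 measured T cell genes had their lowest value, with the list ranging from -0.517 to 0.472 in the high-fat arrays and from -1.33 to 0.966 in the normal arrays (0 of 11 below the 25th percentile). The monocyte and natural killer lists each had 5 of 9 genes lowest in that array, where 18.9% of all probe sets and 55.1% of those with a level over 8 were lowest, so the T cell count is not read as particular to that list. The part of these cells in the platelet values was not tested. Scaled levels of the red cell list ranged from -0.467 to 1.005 in the high-fat arrays and from -0.388 to -0.219 in the normal arrays. Those of the neutrophil list ranged from -0.990 to 0.735 in the high-fat arrays and from -0.837 to 0.746 in the normal arrays, and those of the B cell list from -1.003 to 0.862 in the high-fat arrays and from -0.939 to 1.10 in the normal arrays. Endothelial genes, as Selp is also made there, were mostly dimmer: 2 of 9 measured lay above the 75th percentile, and the list ranged from -0.652 to 0.584 in the high-fat arrays and from -0.742 to 0.378 in the normal arrays.

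**Figure D3:**
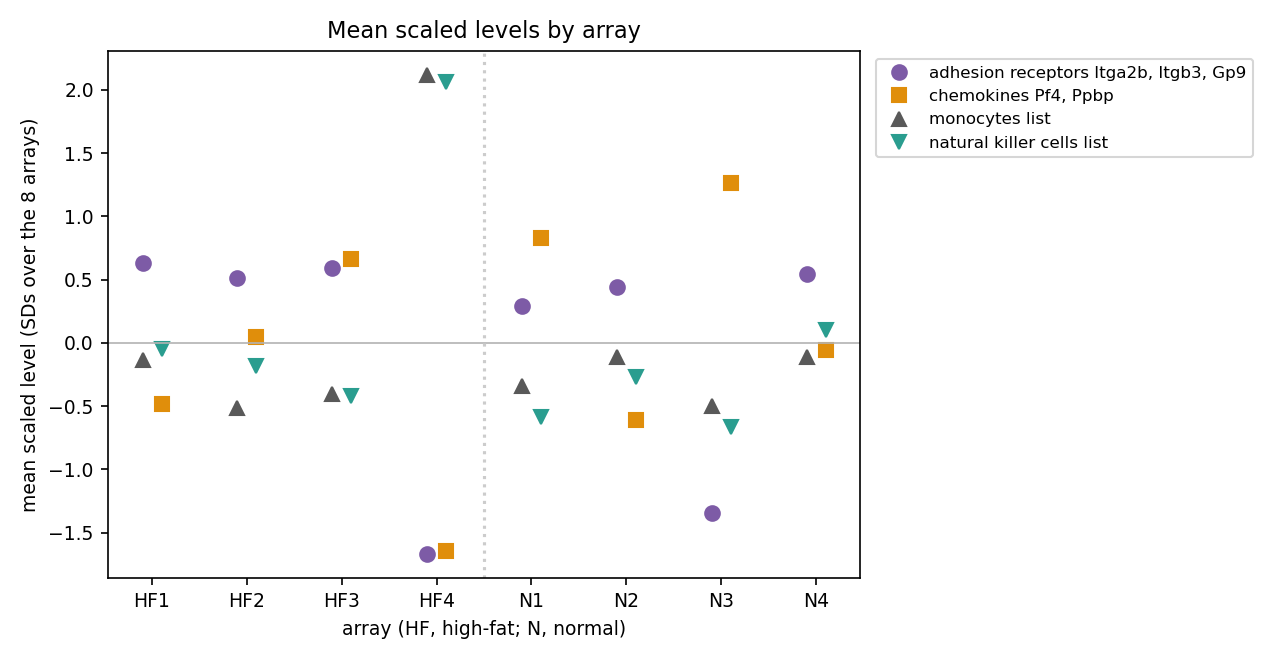
Mean scaled level (SDs over the 8 arrays) of Itga2b, Itgb3 and Gp9 (circles), Pf4 and Ppbp (squares), the monocyte list (upward triangles) and the natural killer list (downward triangles) in each array, high-fat (HF) left of normal (N). In HF4 the member groups are at -1.67 and -1.64 and the white cell lists at 2.12 and 2.07, and in N3 the member groups part, at -1.35 and 1.26.

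Other platelet genes were read from 7 lists of 110 genes, of which 94 had a probe set with 1 symbol, each taken by its brightest one. With limma 0 passed the adjusted threshold, 2 had an unadjusted p under 0.05, and 1 (F11r) had high-fat arrays that did not overlap the normal ones, which is 1.06% of them against 1.44% of all probe sets. With the high-fat diet 48 were higher and 46 lower, with a median difference of 0.0388 within-group SDs, against -0.0479 over all probe sets. Their lowest value was in array high-fat 4 for 28 of the 94, 29.8%, where it was for 14.3% of all probe sets. Of those with a level over 8, 14 of 45 (31.1%) had their lowest value there, where 10.8% of all such probe sets did, and 19 (42.2%) in array normal 3, where 55.1% did. Array high-fat 4 also held highest values of listed genes, as it did for 12.6% of all probe sets. They were 6 of 18 signalling genes, 4 of 15 of granule formation and release, 3 of 15 of granule cargo and 3 of 13 of the cytoskeleton. The transcription factor list had 2 of 12, and the adhesion and agonist receptor lists had 1 each. Correlation with the mean scaled level of the 7 members, over the same 8 arrays, was at least 0.7 for 14 of the 94, 14.9%, and for 2.48% of all probe sets. Without array high-fat 4 these shares were 5.32% and 2.80%. The sets differ in level, as 45 of the 94 lay over 8 against 2426 of all 31042 probe sets. For r, no share among probe sets of like level is given. An r as strong as 0.7 but negative was held by 2.80% of all probe sets over the 8 arrays. Listed genes with such an r were Ccl5 (-0.850), Prkcd (-0.842), Plcg2 (-0.797), Vamp8 (-0.776), Pfn1 (-0.731) and Fn1 (-0.724). The genes and the members share their arrays, so these counts are a description.

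By role, the adhesion receptors had the highest median r with the members among the 7 lists, 0.706. Of 9 measured, 5 had an r of at least 0.7 and the same 5 (Gp5, Itga6, Clec1b, Cd151 and F11r) had their lowest value in array high-fat 4. Without that array, 0 of the list had such an r. Itgb1 went the other way, with r = -0.673 (0.462 without array high-fat 4) and its highest value in that array. Itga6 had 4 probe sets, whose r went as low as 0.0145. Clec1b, the podoplanin receptor of platelets, had r = 0.83 and F11r, a junctional adhesion molecule, 0.767. Their r was 0.146 and -0.229 once array high-fat 4 was left out. With the high-fat diet 3 genes of this list were higher and 6 lower, with a median of -0.698 within-group SDs. F11r also had the smallest p of the list, with a difference of -1.58 within-group SDs (limma, adjusted p = 1), and its 4 high-fat arrays lay below all normal ones.

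Among 15 granule cargo genes, 7 were higher and 8 lower, with a median of -0.0108 within-group SDs. F13a1, a chain of the clot-stabilising factor XIII, and Mmrn1, the factor V carrier multimerin, had the highest r with the members, 0.834 and 0.754. Over the 7 arrays other than high-fat 4 they had 0.646 and 0.722. F13a1 had a further probe set with r = 0.541. Igf1, a growth factor, had the smallest p, at -1.50 within-group SDs (limma, adjusted p = 1). Genes of granule formation and release had 7 of 15 higher and 8 lower (median -0.0284), and 0 with an r of at least 0.7. Stxbp5, which regulates vesicle fusion, had r = 0.543 (its other probe sets went as low as -0.323) and Vipas39, a partner of Vps33b in alpha granule formation, 0.483 (0.0791 by its other probe set). The small GTPase gene Rab38 had the smallest p, at 0.977 within-group SDs (limma, adjusted p = 1), and r = -0.648, which turned to 0.469 without array high-fat 4.

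The agonist receptors had 7 of 12 higher and 5 lower (median 0.121 within-group SDs), and 7 of the 12 had their lowest value in array high-fat 4. Treml1, a receptor stored in alpha granules, had r = 0.888 with the members and F2rl2, a thrombin receptor, 0.649. These were 0.573 and 0.367 when array high-fat 4 was left out. Cd40lg, the CD40 ligand, which T cells also make, had the smallest p, at -1.62 within-group SDs (limma, adjusted p = 1). In array normal 3, where the chemokines were high and the adhesion genes low, the median scaled level of this list was 0.940. Over all probe sets it was 0.182. Of the 12 genes, 5 had their highest value there, as had 21.3% of all probe sets. These 5 had levels from 6.32 for Cd40lg to 7.69 for P2rx1, below the level of 8 above which this array was mostly lowest. The mean scaled level of the agonist receptor list had r = 0.895 with that of Pf4 and Ppbp and r = 0.176 with that of Itga2b, Itgb3 and Gp9, over 8 arrays.

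Signalling genes had 10 of 18 higher and 8 lower (median 0.0388 within-group SDs), and the cytoskeleton list 8 of 13 higher and 5 lower (median 0.300). In the first, Gnaq, a G protein subunit, had r = 0.821 and Pear1, a platelet aggregation receptor, 0.799. Pear1 had a further probe set with r = 0.105. Gnaq was dim, at the 16.0 percentile of levels, and its r without array high-fat 4 was -0.354. Plek, pleckstrin, had the smallest p, at 1.57 within-group SDs (limma, adjusted p = 1). In the cytoskeleton list Myl9, a myosin light chain, had r = 0.721 and Actn1, an actinin that megakaryocytes use to shape platelets, 0.655 (0.145 by its other probe set). Leaving out array high-fat 4 gave 0.455 and 0.712. Myl9 had r = 0.895 with the 3 adhesion genes and 0.0446 with the chemokines. Vcl, vinculin, had the smallest p there, at 1.63 within-group SDs (limma, adjusted p = 1).

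Of 12 megakaryocyte transcription factor genes 6 were higher and 6 lower (median 0.0551 within-group SDs), and 0 had an r of at least 0.7. Gata1, which drives both the megakaryocyte and the red cell lineage, had r = 0.649 and its cofactor Zfpm1 0.408. In the other 7 arrays these were 0.0853 and 0.0263. Etv6, an ETS family factor, had the smallest p, at 1.24 within-group SDs (limma, adjusted p = 1).

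**Figure D4:**
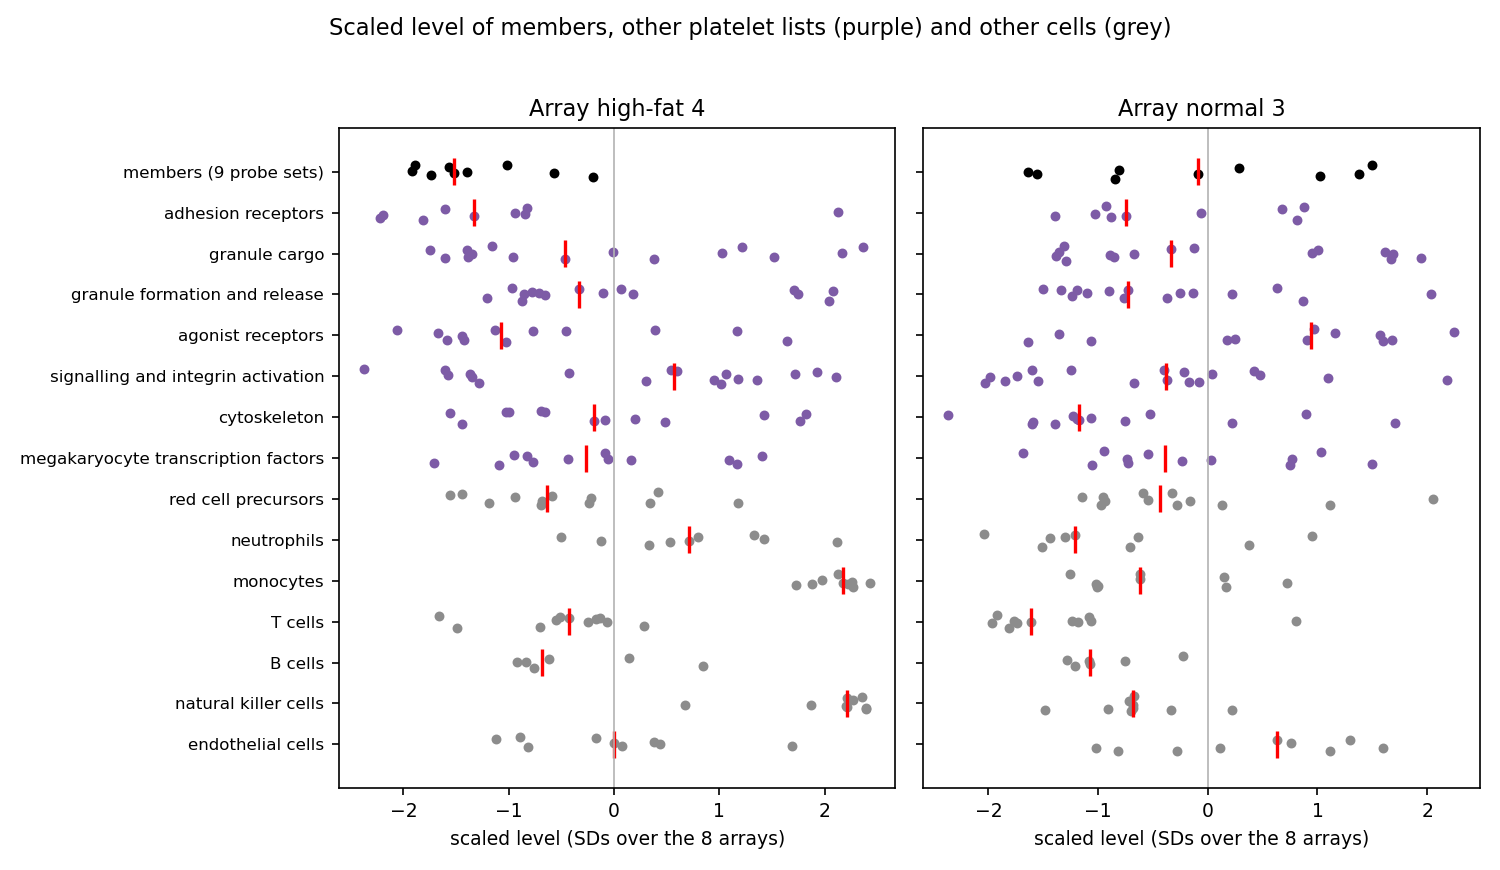
Scaled level (SDs over the 8 arrays) in array high-fat 4 (left) and array normal 3 (right) of the 9 member probe sets (black), the other platelet genes by list (purple) and the genes of other cells by list (grey), 1 point per probe set, with a red line at each median. In high-fat 4 the medians of the adhesion and agonist receptor lists are -1.33 and -1.08 while the monocyte and natural killer lists are at 2.18 and 2.22, and in normal 3 the agonist receptors are at 0.940 and the T cell list at -1.62.

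Outside the platelet lists, the 5 of 14116 genes whose pattern over the 8 arrays was most like the mean scaled level of the members were Padi2 (r = 0.969), Mkrn1 (0.968), Defb1 (0.967), Parvb (0.944) and Rbms3 (0.943). Their r without array high-fat 4 lay between 0.735 for Parvb and 0.95 for Padi2. These genes were the top of a ranking, so their r is a description. Padi2 had an SD at the 0.667 percentile of the table, and Rbms3 a level at the 1.10 percentile. Of the further probe sets, the 3 of Mkrn1 had r from 0.335 to 0.854, the 2 of Parvb from 0.344 to 0.580 and the 3 of Rbms3 from -0.221 to 0.0192.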

How the data were processed

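Whole blood RNA of 8 rats, 200 ng each per the labels' protocols, was amplified and biotin-labelled with the GeneChip 3' IVT Express kit. The authors deposited 1 table of log2 intensities; the sources used here do not give its background correction, normalization or summarization. Each deposited column had a median that rounds to 6.60. Of 31099 probe sets, 57 controls were left out. The platform annotation gave 1 symbol for 20826 of the rest, several for 436 and none for 9780. Signal over background was not analysed. Precision is limited by the number of arrays, 4 per group. No pair of arrays held identical values.

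Groups and replicate numbers came from the titles. The diets were compared per probe set by limma 3.58.1 (R 4.3.3), fitting lmFit then eBayes without covariates, and two-sided p-values were adjusted by Benjamini-Hochberg over 31042 probe sets. Correlations over arrays used Pearson's r and Spearman's rho with two-sided exact tests over all pairings. The limma and correlation code was tested on simulated data. The genes named by rule were all members, in each platelet list the 2 with the highest r with the members and the 1 with the smallest p, and the 5 most similar genes outside. Further genes of the platelet lists were named with their values in view, where a count, an extreme value or an r was described. Members and lists were chosen with earlier results of these data known. The level of 8 and the 2 arrays described singly were chosen after values were seen. Alternatives were quantile normalization, 2 ways of centring arrays, a filter on dim probe sets, a trended and robust eBayes, the replicate number as a block, each animal left out, an exact test, and 3 other measures of covariation (deviations from the diet means, the mean of all probe sets of a gene, and rho).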

Additional observations from a re-analysis of the deposited data

Results flagged for a closer look

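Itgb3 was the one gene of the 7 with an animal far from the others of its diet, and this held in both diets. In the high-fat group, array high-fat 4 lay at -0.745 units and the 3 others between 0.271 and 0.424 units. The gap to its neighbour was 0.868 of the range of the group. In the normal group, array normal 3 lay at -0.803 units and the 3 others between 0.129 and 0.166 units, a gap of 0.962 of the range. Both gaps were above Dixon's 95% critical value for 4 samples, which was applied to 18 groups of arrays, 2 for each probe set, and chance passes it in about 1 of 20 groups. The same arrays were lowest for Itga2b, whose gaps did not pass the limit.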

How the results depend on the processing

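Under 14 alternatives 0 of the 9 member probe sets (0 of 8 after the filter on dim ones) passed limma, and 1, the dimmer Selp probe set, passed the unadjusted exact test. Over all probe sets the count was 0 under each alternative except quantile normalization on top, which gave 32. All 32 had no spread left in 1 diet group, and 11213 probe sets, with Pf4, Itga2b, Itgb3, Gp9 and the brighter Clu probe set among them, had none left in any array, so their correlations could not be computed. That setting put the brighter Selp probe set at -0.237 units, the dimmer one at 0 and Ppbp at -10.3 units, against -2.20 units as reported (adjusted p = 1 for all 3). Centring each array on its median gave 5 adjusted pairs in place of 0. It put the brighter Selp probe set at -0.659, the brighter Clu probe set at -0.636 and Itgb3 at -0.487 units, all turned below 0. The median of an array is the value of 1 probe set, and centring on the median deviation, chosen after seeing the data, turned no difference and gave 0 pairs.

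Leaving out 1 animal at a time turned the sign of 5 of the 9 differences. The brighter Selp probe set ranged from -0.00513 to 0.00677 units, the brighter Clu probe set from -0.123 to 0.268, Itga2b from -0.402 to 0.154, Itgb3 from -0.0658 to 0.450 and Gp9 from -0.460 to 0.598. In these fits Pf4 stayed between -1.89 and -0.578 units, Ppbp between -3.48 and -0.558, the dimmer Clu probe set between -0.0896 and -0.0381, and the dimmer Selp probe set between -0.0494 and -0.0316. Arrays high-fat 4 and normal 3 were also left out together, an alternative added after seeing the data. Among pairs with an unadjusted Pearson p under 0.05, r then turned below 0 for Itga2b and Itgb3 and for 3 pairs with Gp9. It stayed above 0 for Pf4 and Ppbp and for Clu and Itgb3. Other pairs that turned below 0 were Clu and Itga2b, Pf4 and Gp9, Pf4 and Clu, Ppbp and Itga2b, and Ppbp and Gp9. Over this and the single omissions, r ranged from -0.0486 to 0.822 for Clu and Gp9. The range was -0.797 to 0.814 for Itga2b and Gp9, and -0.0367 to 0.871 for Itgb3 and Gp9. With the replicate number as a block, limma called 0 probe sets, with a smallest adjusted p of 1. Under it the unadjusted limma p of the dimmer Selp probe set was 0.0710 and that of the dimmer Clu probe set 0.0409. Same-numbered animals had correlated deviations of -0.125, 0.205, 0.368 and 0.144 for numbers 1 to 4, and not every animal correlated best with its own number, so the numbers were not used as pairs.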

Other observations

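Of 15 granule cargo genes, 3 had their highest value in array high-fat 4, where most members were low. They were Srgn, at a scaled level of 1.52, and a pair that was picked with their values in view. Ccl5, a chemokine that platelets store and that T and natural killer cells make, and Fn1, fibronectin, which platelets store and monocytes also make, were highest in array high-fat 4, at scaled levels of 2.36 and 2.17. Their r with the mean scaled level of the 7 members was -0.850 and -0.724 over the 8 arrays, which rests on that array, since r was 0.0934 and 0.319 without it. Both had a wide spread, with SDs at percentiles 99.9 and 99.8 of the table. Ccl5 stood 0.363 and Fn1 0.726 within-group SDs higher in the high-fat group (limma, adjusted p = 1 for both). Vwf, von Willebrand factor, the ligand of the Gp9 complex, had r = 0.867 with the mean scaled level of Itga2b, Itgb3 and Gp9 and 0.742 with that of the 7 members (0.476 without array high-fat 4). It had low scaled levels in both array high-fat 4 (-1.61) and array normal 3 (-1.31), the 2 arrays where the mean of Itga2b, Itgb3 and Gp9 was low. Vwf was also picked with its values in view. An r of at least 0.7 with that mean was held by 2.31% of all probe sets and 6.38% of the 94 listed platelet genes.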
